A study of Homo sapiens with 7 samples.

Results

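The deposited MED1 list from OCI-Ly7 cells was examined peak by peak. All 43508 peaks on chromosomes 1 to 22 and X were taken, of 323423 peaks in the 6 factor lists of the study and of 45255 rows in the MED1 table itself. OCI-Ly7 is an established human line of diffuse large B-cell lymphoma, a cancer of mature B cells. The cells were untreated, grown as suspension cultures in medium with 10% fetal bovine serum, and assayed by chromatin immunoprecipitation followed by sequencing (ChIP-seq) with antibodies against MED1, OCA-B, OCT2, OCT1, CREBBP and EP300. Each factor had 1 library from this 1 cell line, and the peaks of each were called by the authors against the same input DNA. No value below therefore has a replicate check and no test between conditions could be made. The MED1 library held 18459415 tags of 51 bp, of which 18459398 stayed after the peak caller's own duplicate filter, and the input held 37517450 after that filter. The small difference does not give the library's duplicates, since any removal before peak calling is not given in the sources used here.

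Mediator is a large complex that bridges transcription factors bound at enhancers and promoters to RNA polymerase II. MED1 is the subunit through which many activators touch it, and broad, dense MED1 signal is widely used to mark strong enhancers of a cell type. OCA-B is a B-cell coactivator that binds the POU factors OCT2 and OCT1 on the octamer motif, and CREBBP and EP300 are the paralogous acetyltransferases that mark active enhancers.

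The reference sequences of 4 promoters under the 10 widest MED1 peaks are given first, because they show the kinds of DNA that these peaks cover: a long non-coding RNA, a pair of histone genes and a germinal centre gene. Each is the 250 bases before the annotated start, 5′ to 3′ on the strand of the gene, from RefSeq on GRCh38.p14. Capitals mark matches on either strand to the octamer ATGCAAAT, to TATAAA or to CCAAT.
LINC01991: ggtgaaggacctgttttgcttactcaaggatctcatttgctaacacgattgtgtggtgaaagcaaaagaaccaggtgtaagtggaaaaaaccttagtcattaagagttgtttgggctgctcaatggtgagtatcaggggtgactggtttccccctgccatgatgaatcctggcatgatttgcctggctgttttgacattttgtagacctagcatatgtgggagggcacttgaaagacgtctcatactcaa
H2BC14: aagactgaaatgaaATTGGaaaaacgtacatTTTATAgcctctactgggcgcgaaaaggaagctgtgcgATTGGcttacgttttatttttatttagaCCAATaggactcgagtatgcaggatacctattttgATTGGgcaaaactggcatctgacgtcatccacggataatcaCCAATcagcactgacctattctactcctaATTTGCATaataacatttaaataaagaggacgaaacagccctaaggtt
H4C2: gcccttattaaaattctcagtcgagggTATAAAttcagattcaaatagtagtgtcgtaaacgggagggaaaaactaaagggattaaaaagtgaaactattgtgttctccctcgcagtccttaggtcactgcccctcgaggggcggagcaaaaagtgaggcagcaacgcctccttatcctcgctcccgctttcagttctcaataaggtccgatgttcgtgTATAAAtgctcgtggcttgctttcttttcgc
GCSAM: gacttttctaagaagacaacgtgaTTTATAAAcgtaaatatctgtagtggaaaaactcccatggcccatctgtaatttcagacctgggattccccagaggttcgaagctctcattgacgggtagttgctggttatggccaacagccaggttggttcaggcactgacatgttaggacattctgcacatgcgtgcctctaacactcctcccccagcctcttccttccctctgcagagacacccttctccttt
The LINC01991 window (chr3:187976408-187976657, minus strand) lies in the second widest peak and held none of these motifs. The H2BC14 window (chr6:27814772-27815021, plus strand), of a gene for a replication-dependent H2B histone, held 1 octamer match, 1 TATAAA match and 5 CCAAT matches. The H4C2 window (chr6:26027284-26027533, minus strand), of an H4 histone gene, held 2 TATAAA matches. The window of GCSAM (chr3:112133249-112133498, minus strand), which encodes a signalling adaptor of germinal centre B cells, held 2 TATAAA matches that overlap on opposite strands.

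MED1 peaks were mostly short, with a long tail of broad domains, the widest of them over the immunoglobulin kappa genes. The median width was 349 bp (95% order-statistic interval 347 to 352, which covers counting only), the middle of the list ran from 233 bp at the lower quartile to 589 bp at the upper, and the 99th percentile was 3327 bp. The narrowest width was 174 bp, which is the fragment length the peak caller estimated for this library, and 2195 peaks had exactly that width. The widest peak, over the immunoglobulin kappa constant gene IGKC, was 33043 bp. Peaks of 1000 bp or more numbered 4561, which is 10.5% of the list and 37.4% of the 23.81 Mb it covered. There were 156 peaks of 5000 bp or more and 21 of 10000 bp or more.

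The pileup, the authors' count of overlapping extended tags at a summit, had a median of 20 (interval 20 to 21), an upper quartile of 35 and a 99th percentile of 226. Its maximum was 348. With 1 tag kept per position and strand, a fragment of 174 bp allows at most 348 overlapping tags, so the highest summits stand at the largest value the calling could give. That value was reached by 9 peaks, and 69 peaks had a pileup of 330 or more. Of these 9, 6 lay over replication-dependent histone genes on chromosome 6, among them H2BC3 and H3C3, H1-4 and H2BC5, and H2BC8 and H2AC8. The other three lay in the non-coding gene LOC101928911, in ALDH5A1, which encodes a mitochondrial dehydrogenase, and over IGKC. Because of this ceiling, pileup does not order the strongest sites among themselves.

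**Figure D1:**
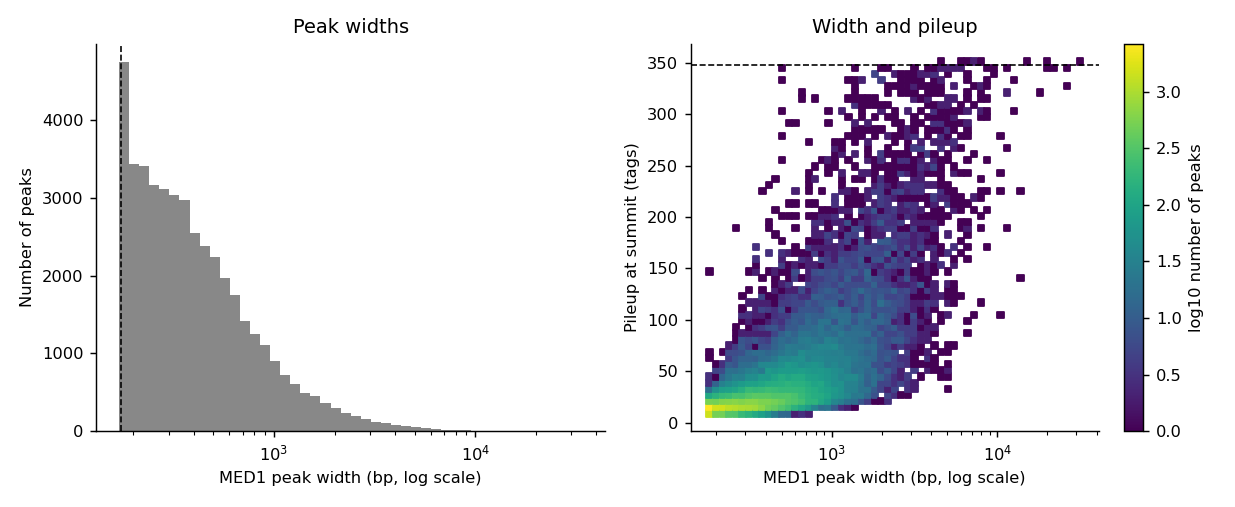
Left, number of MED1 peaks by width (log scale, bp), with a dashed line at the fragment length of 174 bp. Right, width (log scale, bp) against the pileup at the summit (tags), coloured by the log10 number of peaks, with a dashed line at the ceiling of 348: wide peaks tend to be high, and the tallest stop at the line.

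Wider peaks were also higher. Across the 43508 peaks the Spearman coefficient of width with pileup was 0.72, that of width with the authors' fold over input was 0.64, and that of width with the control level was 0.42. These peaks share 1 library and 1 input, so the coefficients are descriptions. The control level is what the fold and pileup imply for the input at a summit, and its median was 2.46 in the narrowest of 10 equal width classes, 4.92 in the widest class and 6.40 in the widest 1%. Its part in the widths was not tested. The 435 widest peaks and the 435 with the highest pileup shared 205 peaks, or 47.1% of each. The 435 widest are called the wide peaks below. They had a median width of 4394 bp, a median pileup of 221 and a median fold of 28.4, and made up 9.70% of the covered length. The narrowest of them was 3328 bp with a pileup of 120, next to VSIG4, and the first left out was 3327 bp with a pileup of 109, next to MTCL1.

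Peak coordinates below are those of the deposited table, on hg38. The widest domain of the list ran over the joining segments and the constant gene of the immunoglobulin kappa locus. This peak, chr2:88829134-88862176, had a pileup of 348 and a fold of 26.2, and covered IGKC and IGKJ1 to IGKJ5, the segments that are joined to build the kappa light chain. A separate peak over IGKV4-1, of 6827 bp (chr2:88879749-88886575), had the highest fold of all MED1 peaks, 108.5. Heavy and light chain loci gave 7 of the wide peaks, with widths of 3812 to 33043 bp. The ninth widest peak, 14039 bp at chr14:106184985-106199023, covered the heavy chain segments IGHV1-18 and IGHV3-19 with a pileup of only 139. The light chain peak of 11323 bp at chr22:22857931-22869253, covered the lambda segment IGLV3-4 with a pileup of 347.

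The second widest peak lay in the long intergenic stretch between BCL6, the repressor that drives the germinal centre programme, and LPP. It measured 27498 bp (chr3:187956507-187984004), had a pileup of 327 and a fold of 27.7, and covered LINC01991. Its summit was 173.3 kb from LPP. Beside it stood the twelfth widest, 12437 bp (chr3:187940817-187953253) with a pileup of 300, whose summit was 199.3 kb from BCL6. Distances to genes here and below run from the summit. With gaps of up to 1000 bp joined, 16 peaks of this stretch formed a block of 54424 bp, the widest in the genome. Next came a block of 27 peaks over DEPTOR, of 41524 bp, and then the kappa block of 41390 bp. BCL6 itself carried 8 peaks over its body or within 1000 bp, and the widest of these was 1564 bp.

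The third widest peak, 27195 bp at chr6:87900970-87928164, lay inside LOC101928911, a non-coding gene 141.5 kb from the nearest protein-coding gene SPACA1. It had a pileup of 346 and a fold of 35.2. A further peak in the same non-coding gene measured 7811 bp and reached 348 tags.

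Histone gene clusters of chromosome 6 supplied the next 3 widest peaks and the eighth. The largest, 21396 bp at chr6:27805250-27826645, held H2BC13, H2AC13, H3C10, H2AC14, H2BC14 and H4C11 and had a fold of 55.8. The fifth widest, 19599 bp at chr6:26019284-26038882, held H3C1, H4C1, H4C2, H3C2 and H2AC4. The sixth, 19482 bp, held H2BC11, H2AC11, H2BC12, H4C9 and H2AC12. The eighth, 15151 bp, held H3C4, H2AC7, H2BC7 and H4C5. In all, 26 of the wide peaks overlapped histone genes. Their median pileup was 346 and their median fold 42.2, against 214.5 and 27.3 in the 402 wide peaks that lay over neither histone nor immunoglobulin genes.

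Over GCSAM a pair of neighbouring peaks, 13310 bp (chr3:112124377-112137686, pileup 225) and 12659 bp (chr3:112111654-112124312, pileup 333), covered that gene and C3orf52. CADPS, which encodes a vesicle priming factor of secretory cells, carried a peak of 18055 bp inside its body at chr3:62810423-62828477 with a pileup of 323. BLK, a Src-family kinase of B cells, carried 11784 bp at a pileup of 188. ARID5B, which encodes a DNA-binding chromatin cofactor, carried 11131 bp at 320, and RNGTT, the mRNA capping enzyme, 11105 bp at 321. ZCCHC7, an RNA-processing factor that neighbours PAX5, had 10476 bp at 278 and a second peak of 8580 bp lay 13.1 kb from it. The peak in GAB1, a docking adaptor gene, was of like width at 10222 bp, but had a pileup of 102. RUBCNL, an autophagy regulator, followed with 9371 bp, EFNA5, an ephrin ligand gene, with 8610 bp, and TCL6, a non-coding gene, with 8599 bp.

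Of the 30 widest peaks 21 overlapped a protein-coding gene, 8 a long non-coding gene only and 1 neither. These 21 peaks held 40 coding genes, many of them histone genes. Across all 435, 255 overlapped protein-coding genes (227 genes), 60 long non-coding genes only and 120 neither. Immunoglobulin segments belong to neither class here. The peak over IGKC is therefore counted as long non-coding only and the one over IGKV4-1 as neither.

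**Figure D2:**
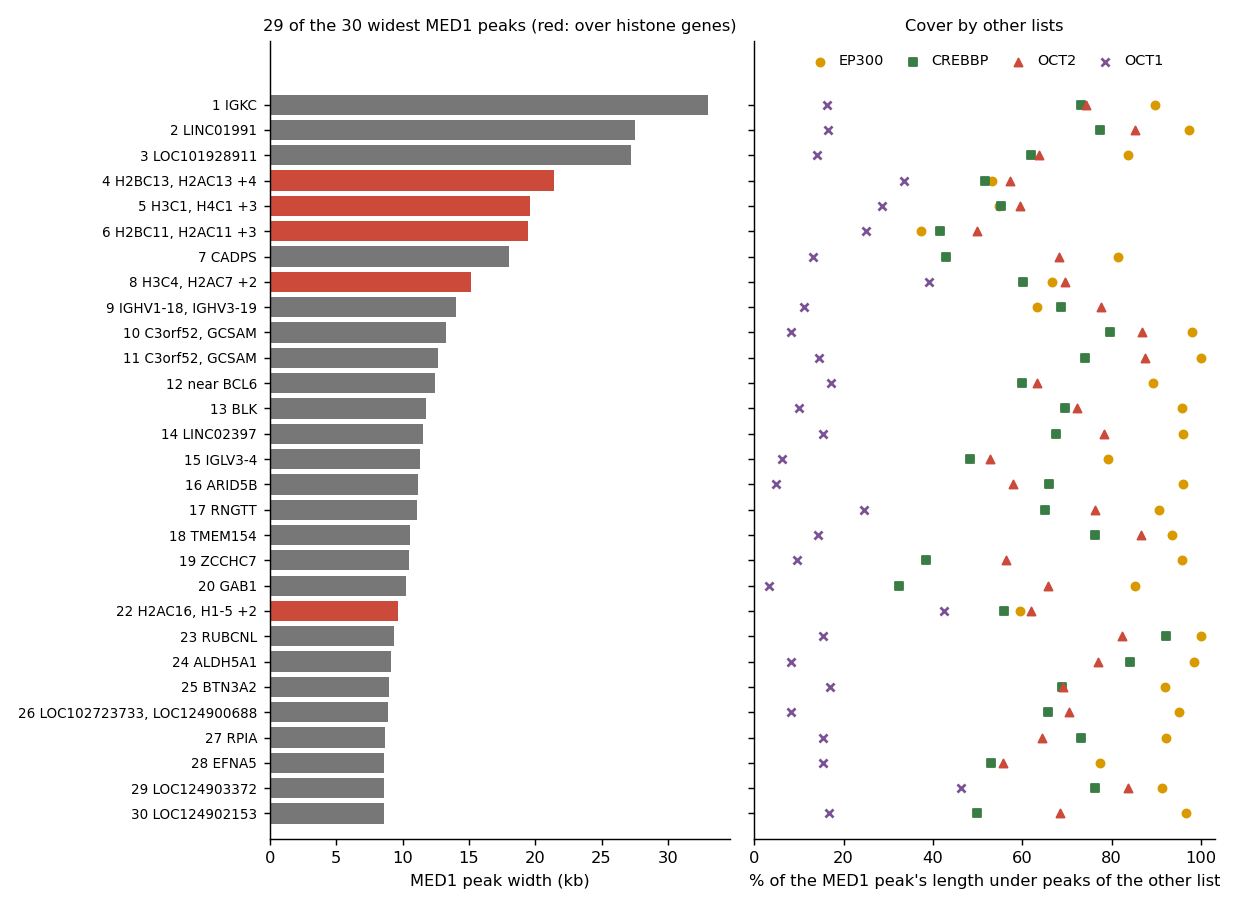
Left, width (kb) of 29 of the 30 widest MED1 peaks, labelled by rank and by genes under them or nearest, with peaks over histone genes in red. Right, percent of each MED1 peak's length that lies under peaks of EP300, CREBBP, OCT2 and OCT1: EP300 lies to the right for most loci, with a median of 91.5% over the 30 peaks, and further left over the histone clusters.

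MED1 summits stood at gene starts far more often than at gene ends, yet the wide peaks had a smaller share of summits at gene boundaries. Since the gene table gives no strand, summits were first sorted by either end: those within 1000 bp of an end of any coding or long non-coding gene are boundary summits. There were 9963 of these, or 22.9% (exact binomial interval 22.5 to 23.3), with 22389 (51.5%) inside genes and 11156 (25.6%) between them. Immunoglobulin segments are not counted as genes here, so the peak over IGKC falls between genes. Median width was 334 bp (interval 330 to 339) at boundaries, 355 bp (350 to 359) inside genes and 356 bp (351 to 362) between them. Boundary peaks were thus slightly narrower, though their median pileup of 22 was above the 20 of the other classes. The wide peaks held 55 boundary summits, 12.6% (9.67 to 16.1). A wide peak can cover a promoter while its summit lies further away, and 105 promoters of 93 genes lay under the wide peaks. The share of wide peaks with any part at a boundary was not computed. Of boundary peaks 0.55% were wide, against 1.1% of those inside genes and 1.2% of those between genes. The boundary share was 21.8% in the narrowest of 10 width classes, between 19.8% and 25.9% in the next 8 and 15.7% in the widest.

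Starts could be told from ends for 11927 protein-coding genes of at least 4000 bp. Each had a start in the RefSeq promoter table, which does not hold all genes, that was also an outer end of the gene. A MED1 summit lay within 1000 bp of the start in 3989 of these genes (33.4%) and within 1000 bp of the far end in 661 (5.54%). Summits at starts and at ends had the same median width, 323 bp, with median pileups of 22 and 18. Around the start the summits formed a double peak. There were 95.2 summits per 1000 genes in the 250 bp bin centred 375 bp upstream, 32.5 in the bin just downstream of the start, and 63.6 in the bin centred 875 bp downstream. Between 4000 and 5000 bp away the level was 36.2 per 1000 genes per 1000 bp upstream and 35.1 downstream, against 276.9 in the first 1000 bp upstream and 186.9 in the first 1000 bp downstream.

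**Figure D3:**
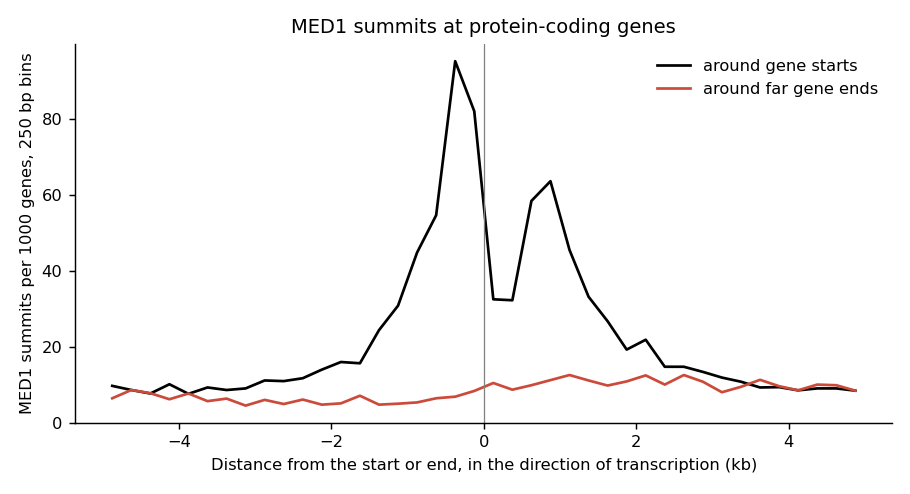
MED1 summits per 1000 protein-coding genes in 250 bp bins, by distance (kb) from the gene start (black) or far end (red) in the direction of transcription, for 11927 genes. The start curve has a maximum on either side of the start with a dip between them, and the end curve stays low throughout.

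At the places given here, the dip just downstream of the start was shared by the CREBBP, OCT2 and EP300 lists. It was not seen at them in OCT1 or OCA-B, and distances between these places were not compared across lists. MED1 peaks covered 14.3% of these starts at 375 bp upstream, 5.04% at 125 bp downstream and 10.2% at 875 bp downstream. CREBBP peaks covered 10.9%, 4.23% and 7.02% at the same places, and OCT2 peaks 17.3%, 7.14% and 10.7%. EP300 peaks covered 21.96%, 9.298% and 14.25%. OCT1 peaks covered 13.9%, 24.3% and 2.98%. OCA-B peaks covered 23.6%, 11.6% and 10.9%, with the lowest level furthest downstream. The lists differ in depth and antibody, so these levels do not rank the factors.

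Inside genes the summits leaned to the 5′ side. In 7462 genes of at least 20000 bp, with 1000 bp left out at both ends, 12705 summits were placed by their fraction of the gene body in 10 equal parts. The first part held 2934 (23.1%) and the second 1360 (10.7%). Numbers fell in each part to 883 (6.95%) in the ninth and stood at 1228 (9.67%) in the last. The 134 wide peaks among them were spread more evenly, with 20 in the first part and 9 to 18 in each of the others.

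The gene-rich chromosomes 19 and 17 had the most peaks per Mb and the smallest shares of wide peaks. The genome held 14.4 MED1 peaks per Mb, counted over whole chromosome lengths with unsequenced stretches included. Chromosome 19 held 34.0, chromosome 17 26.1 and chromosome 22 23.0, and the lowest levels were 7.58 on X, 8.39 on chromosome 13 and 9.01 on chromosome 4. Over the 23 chromosomes, which share 1 library, peaks per Mb and protein-coding genes per Mb had a Spearman coefficient of 0.89 and a Pearson coefficient of 0.92. The implied control level also moved with peaks per Mb (Spearman 0.82, Pearson 0.63), and its part was not tested. Wide peaks made up 2.34% of the peaks of chromosome 4 (40 peaks), 2.11% on chromosome 6 (56 peaks) and 1.77% on chromosome 13, but 0.201% on chromosome 19 (4 peaks) and 0.276% on chromosome 17 (6 peaks). The coefficient of this share with genes per Mb was −0.51 (Spearman). On chromosome 6, 35 of the 56 wide peaks held no histone gene.

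**Figure D4:**
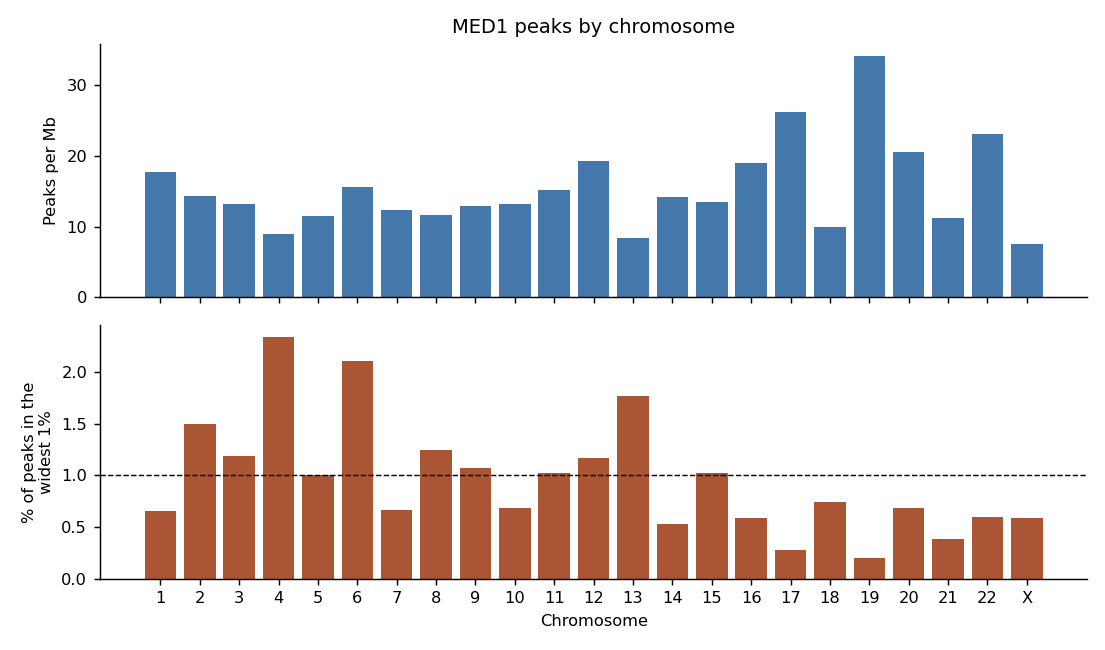
Top, MED1 peaks per Mb of each chromosome. Bottom, percent of a chromosome's peaks that belong to the widest 1% of the list, with a dashed line at 1%: chromosome 19 is highest in the upper panel at 34.0 and lowest in the lower one at 0.201%.

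The median pileup was 19 to 22 on every autosome and 15 on X. The implied control level moved with it, at 2.95 to 3.44 on the autosomes and 1.88 on X, and its part in the lower pileup of X was not tested. The widest peak of chromosome 1 was 6920 bp over the histone gene H4C15, that of chromosome 11 7774 bp in SIK3, a salt-inducible kinase gene, and that of chromosome 21 8093 bp in IL10RB, a chain of the interleukin 10 receptor. On chromosome 16 it was 5267 bp, 12.1 kb from IL4R, the interleukin 4 receptor gene. On chromosome 18 it was 8275 bp in PIEZO2, a mechanosensitive channel gene, and on chromosome 7 8489 bp in SPMIP7. The widest of chromosomes 17 and 19 were only 4380 bp, 12.5 kb from GRAP, an adaptor gene, and 4405 bp over NLRP11, a NOD-like receptor gene.

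Peaks were clustered along chromosomes. Of 3043 windows of 1 Mb, 650 (21.4%) held no peak, the median was 7, and the densest 304 windows held 40.5% of the list. The windows span whole chromosomes, and unsequenced stretches, where no peak can be called, were not left out of windows or gaps. The densest was 22 to 23 Mb of chromosome 22, which holds the immunoglobulin lambda segments, with 182 peaks. The next was 26 to 27 Mb of chromosome 6, the first histone cluster, with 144 peaks, of which 15 were wide, and 190.5 kb covered, the most of any window. The window at 37 to 38 Mb of chromosome 9, around ZCCHC7, held 127 peaks with 8 wide ones. The 187 to 188 Mb window of chromosome 3, with the LINC01991 domain, held 94 peaks over 117.5 kb. The median gap between neighbouring peaks was 3.18 kb, 36.6% of gaps were under 1 kb, and 530 gaps (1.22%) were over 1 Mb.

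Among the genes listed, those of B cells carried MED1 peaks more often than those of other lineages, and 22.1% of them had a wide one. The lists were chosen with earlier results of these data known, so this contrast is a description only. A gene was counted when a peak lay over it or within 1000 bp. Of all 19974 protein-coding genes 46.7% were counted, and 1.22% had a wide peak. The 3 B-lineage lists (germinal centre, identity, antigen receptor signalling) together had 64 of 68 members with a peak (94.1%) and 15 with a wide one (22.1%). T-cell, myeloid, erythroid, liver and neuron lists together had 19 of 69 (27.5%) with a peak, none wide, and the widest, 2614 bp, lay on LCK, a Src-family kinase gene. In a set of 69 genes, the lack of a wide peak cannot be told from the 1.22% of all coding genes. The B-cell genes were longer, with a median of 48.0 kb against 21.9 kb in the other lineages and 24.2 kb in all coding genes, and lengths were not matched. A peak touched the 1000 bp around a gene end in 33.7% of all coding genes, and in 19, 19 and 15 members of these lists in turn. On the narrower count of a summit in that window, 16 of 25 germinal centre, 18 of 25 identity and 14 of 19 signalling genes passed, where 31.4% of all coding genes did.

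Germinal centre genes with a peak numbered 23 of 25, and 8 had a wide one. After GCSAM came MME, which encodes the CD10 antigen, at 5508 bp, CXCR4, a chemokine receptor gene of the dark zone, at 5008 bp, and FOXO1, a dark zone transcription factor gene, at 4672 bp. SERPINA9 and RGS1 had none. CXCR4 also had a peak of 7959 bp at a distance of 14.2 kb, in a different position from the one counted. Among 25 identity genes 23 had a peak and 5 a wide one, led by BLK, by ETS1 with 7646 bp, by FCRLA with 6071 bp and by TCF4 with 4984 bp. CR2 and BANK1 had none. PAX5 and EBF1, the early B-lineage factors, had many narrower ones, 13 and 37 peaks with widths of at most 2492 and 3013 bp. All 19 receptor signalling genes had a peak, and 3 were wide, on the calcium channel gene ITPR1 (5722 bp), on the adaptor gene BLNK (3934 bp) and on the kinase gene SYK (3796 bp). PLCG2, the phospholipase that the receptor activates, held 55 peaks, none of them wide, of which the widest was 2998 bp. These lay close together, and with gaps of up to 1000 bp joined, 23 peaks there formed a block of 28923 bp.

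Of 33 genes known as targets of aberrant somatic hypermutation in this lymphoma, 32 had a peak and 10 a wide one. These included RHOH (8553 bp), ETS1, OSBPL10 (6813 bp) and ST6GAL1 (6600 bp), and GRHPR had none. OSBPL10, an oxysterol-binding protein gene, held 57 peaks, the most of any gene, over 416.9 kb. Plasma cell genes had 11 of 14 with a peak, and JCHAIN, which joins antibody polymers, had 6792 bp. EDEM1, of endoplasmic reticulum quality control, had 6021 bp, and CREB3L2, a secretory pathway factor gene, 3444 bp. SDC1, ELL2 and SSR4 had none. Of 11 chromatin regulators mutated in lymphoma 10 had a peak, MEF2B had a wide one of 3405 bp and TET2 had none. These genes are long, with a median of 87.5 kb. On the count of a summit within 1000 bp of a gene end, 4 of 11 (36.4%) passed, near the 31.4% of all coding genes.

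Of all coding genes 46.7% had a peak and 1.22% a wide one. No ribosomal protein, Mediator or immediate early gene of the lists had a wide peak. Lists of 85, 32 and 16 genes are too short to tell this absence from the share of 1.22%. Of 85 cytosolic ribosomal protein genes 73 had a peak, and the widest peak per gene had a median of 574 bp, against 473 bp over all coding genes with a peak. RPLP0 had the widest, 1660 bp. Of 32 Mediator subunit genes 24 had a peak, led by MED25 (1279 bp) and MED26 (929 bp), and MED1 itself had 1 peak, of 450 bp. Of 16 immediate early genes 11 had a peak, led by KLF6 (941 bp) and KLF2 (927 bp). All 25 small nuclear RNA genes had one, with a median widest width of 1533 bp, and RNU1-2, of the U1 splicing RNA, had a wide one of 3541 bp. Replication-dependent histone genes stood apart in width, with 62 of 69 having a peak and 55 a wide one, at a median of 6828 bp. Many of those 55 genes share a peak.

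Of 1911 miRNA genes 9.37% had a MED1 peak and 0.366%, 7 genes, a wide one. Among these 7 were MIR3143, beside the histone peak of 19482 bp, and MIR567, in the GCSAM peak of 12659 bp.

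The promoters under wide peaks differed in letters from the whole table, chiefly through histone genes. Of 34961 promoter windows of 300 bases, 1.77% held the octamer, 11.5% TATAAA and 34.6% CCAAT. Among the 4269 that overlapped any MED1 peak the shares were 2.90%, 9.72% and 41.2%. Among the 45 histone windows under wide peaks they were 48.9%, 66.7% and 82.2%, as H2BC14 shows above. These windows are not independent, and a match on either strand counts in each window that holds it. Those of H2BC14 and H2AC14 cover nearly the same bases, H3C4 and H2AC7 share a window, and H2BC12 is entered more than once. Distinct sites were not counted. Among the 60 windows of other genes under wide peaks they were 8.33%, 23.3% and 25%. Median GC content was 58.7% in all windows, 42.3% in these histone windows and 48.8% in the other ones, and base composition was not matched. A match is a run of letters, not a measured site.

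Wide MED1 peaks nearly always lay where the other factors had peaks. Of the 435, 435 overlapped OCT2, 435 CREBBP, 434 OCA-B, 434 EP300 and 404 OCT1 peaks. The one without OCA-B and EP300 was chr1:175103183-175108298, 5116 bp inside TNN, a tenascin gene, with a pileup of 56. Of all MED1 peaks 25.2% overlapped all 5 other lists and 5.70% (2480 peaks) overlapped none. The share with none was 18.1% in the narrowest class, 22.4% among peaks of the fragment length, and 0.276% in the widest class. A wide peak has more bases with which to meet another, so the summits were compared too. Summits within 250 bp of a CREBBP summit made up 34.2% of the narrowest class, 90.6% of the widest class and 95.6% of the wide peaks. The same shares were 36.8%, 88.2% and 93.1% for OCA-B, 48.9%, 86.2% and 89.9% for OCT2 and 53.5%, 81.3% and 88.7% for EP300. OCT1 gave 8.23%, 61.8% and 84.8%.

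**Figure D5:**
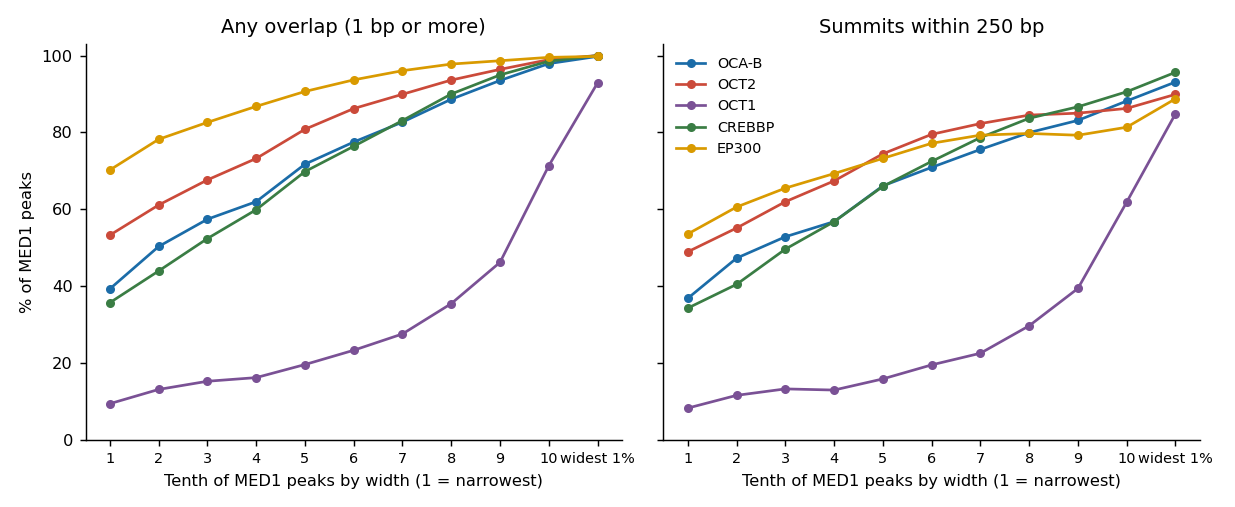
Percent of MED1 peaks that meet a peak of each other list, in 10 equal classes of MED1 width and in the widest 1%, by any overlap (left) and by summits within 250 bp (right). All curves are higher in the widest class than in the narrowest, and OCT1 is lowest in every class of both panels, reaching 92.9% and 84.8% in the widest 1%.

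The histone clusters differed from the other domains in how much of their length the acetyltransferase EP300 covered. Over the 26 wide peaks with histone genes EP300 peaks covered a median of 61.0% of the MED1 length (31.7 to 81.9%), and none of the 26 reached 90%. Over the 402 wide peaks with neither histone nor immunoglobulin genes the median was 97.2% and 320 reached 90%. OCT1 was the reverse, with medians of 32.6% and 15.5%, and OCA-B was also higher over histone genes, with 63.5% and 55.2%. CREBBP had medians of 59.9% and 74.7%, and OCT2 63.9% and 76.9%. The 7 wide peaks over immunoglobulin segments had an EP300 median of 86.9% (63.3 to 100%), and 2 of them reached 90%. The kappa peak contained 15 CREBBP, 14 OCT2, 18 OCA-B and 13 EP300 peaks, so the other lists were broken into shorter pieces there.

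Broad domains were most frequent in the MED1 and EP300 lists. Of MED1 peaks 0.359% were 5000 bp or wider, and of EP300 peaks 0.312% (258 peaks). OCT2 had 20 such peaks, CREBBP 15, OCA-B 5 and OCT1 2. The widest EP300 peak was 18661 bp and the widest OCT2 peak 15343 bp. The lists differ in tags, from 12357450 for CREBBP to 27885791 for EP300, and the part of depth in these widths was not tested.

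A small set of tall peaks stood on high input. The implied control was 20 or more at 45 peaks (0.103%), whose median fold was 2.83 despite a median pileup of 150, and none was wide. The highest, at chr3:93470329-93470829, had a pileup of 344, a control of 168.8 and a fold of 2.03. Others lay over nuclear copies of mitochondrial genes on chromosome 1, such as MTND1P23 and MTCO1P12. None of these peaks is among the results above on wide peaks.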

How the data were processed

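ChIP-seq of 6 factors in OCI-Ly7 cells was used, with 1 library per factor. Per the submitters' processing notes reads were on hg38, and the named tools include MACS2 2.1.1.20160309, Bowtie2 2.3.2.2, CASAVA 1.8.2 and SAMtools 1.3.1. Per the file headers, MACS2 called narrow peaks for each factor against the same control at a q threshold of 0.05, with an effective genome size of 2700000000, 1 tag kept per position and control windows of 1000 and 10000 bp. The deposited table gives each peak's pileup signal at the summit, the ratio over control (fold enrichment) and −log10 p and q values. These values are the authors' and describe peaks within a list only.

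From them were computed widths, the control implied by (pileup + 1)/fold − 1, whose lowest value equals the genome background of 1.19 that the header's tag number gives, and places relative to RefSeq GRCh38.p14 genes (19974 protein-coding, 18177 lncRNA). Starts came from a promoter table of 27195 genes. Overlap meant 1 bp. Intervals on medians are order statistics and those on shares exact Clopper-Pearson, at 95%, and cover counting only. Python 3.11.15, pandas 2.3.3, numpy 2.4.6, scipy 1.17.1 and matplotlib 3.10.9 were used, and scripts were tested on simulated data.

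Named genes were those under or nearest to the 30 widest peaks, those of the 10 highest pileups, the widest of each chromosome, the first 4 of each gene list by peak width, and list members with no peak where there were 4 or fewer. BCL6, PAX5, EBF1, MED1, the IGKV4-1 peak, the TNN peak and the miRNA genes were named after their values were seen. So were the joined blocks at LINC01991, DEPTOR and PLCG2, and the peaks on high input. The members and gene lists were chosen with earlier results of these data known. Alternatives were a stricter q, joined peaks, other windows, summit rules, shortened lists and regions left out. The gene under 1 of the 30 widest peaks is not reported here. Peaks on chromosome Y and on other contigs were left out of the report.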

Additional observations from a re-analysis of the deposited data

Results flagged for a closer look

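The MED1 table also holds peaks that no comparison above uses, since they lie off chromosomes 1 to 22 and X. There were 257 on chromosome Y and 1304 on alternate contigs, which are other versions of regions that the main chromosomes already hold. A further 185 lay on unlocalised or unplaced contigs and 1 on the mitochondrial genome. Of the alternate contig peaks 484 were on versions of chromosome 6, and of the unlocalised ones 87 were on GL000225v1 of chromosome 14. They were called against the same input as the other peaks.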

How the results depend on the processing

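No paired analysis was possible because each factor had 1 library, and for the same reason no replicate could be left out. Peak number and width, place shares and widths, the wide peaks and the ratio of chromosome 19 to X were recomputed under other settings. So were the overlaps and the gene lists, and none of these values reversed. The profiles along genes, wide shares by chromosome, cover by EP300, promoter motifs, coefficients and the counts of peaks of 5000 bp or more were not recomputed. Of 59 recomputed values 27 stayed within their interval or within 1.5 times and 32 moved. With −log10 q of 5 or more the median width was 436 bp and the boundary share 24.55%. Joining peaks over gaps of up to 1 kb left 27607 peaks with a median of 449 bp and a widest of 54424 bp. That block was the LINC01991 stretch and not the kappa locus, so the place of the widest domain changed with joining. Without immunoglobulin, histone and small nuclear RNA regions the widest was 27498 bp. The boundary share was 13.22% with a window of 500 bp, 36.67% with 2500 bp, 26.13% where any part of the peak counted and 18.06% with protein-coding genes only, and the boundary median width was 340 bp with 500 bp. The widest 5% lay over 860 coding genes, and the highest 1% by pileup had 20.46% at boundaries. Gains in overlap from the narrowest to the widest class were 58.63 (OCA-B), 45.67 (OCT2), 61.93 (OCT1), 62.84 (CREBBP) and 29.3 (EP300) percentage points. In the same order they were 61.25, 50.45, 56.25, 65.62 and 33.95 with the MED1 summit inside the other peak, and with summits within 250 bp 51.36, 37.32, 53.61, 56.33 and 27.78. Against lists shortened to the length of OCT1 they were 73.87, 73.2, 77.54 and 62.6 for OCA-B, OCT2, CREBBP and EP300. Under the summit rule the genes with a peak were 4 chromatin regulators and 1 each for the myeloid, erythroid, liver and neuron lists. The cause of these moves was not tested beyond what each construction sets, such as a wider window or fewer peaks. The depth of 1 library limits what narrow, low peaks can show, and peaks at the fragment length cannot be told from shorter ones.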
